A study of Mus musculus with 3 samples.

Results

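Carboxylesterases are serine hydrolases that split ester, thioester and amide bonds in drugs, pesticides and lipids, and the liver is one of their main sites. Mice carry many of them in tandem arrays of related genes. Most are soluble proteins held in the lumen of the endoplasmic reticulum by a retrieval signal at their end, although Ces1c is secreted into mouse plasma. Enzymes of the Ces1 group tend to act on esters with a bulky acyl part, including triacylglycerol and cholesteryl esters, and those of the Ces2 group on esters with a bulky alcohol part.

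The 9 genes described were Ces1c, Ces1d, Ces1e, Ces1f, Ces1g, Ces2a, Ces2e, Ces3a and Ces3b, taken by their gene symbols. Of these, 7 had a probe set that lists a single gene, out of 18193 such genes in the series, and the brightest probe set by mean over the 3 arrays stood for each. Ces3a and Ces3b were listed together on a single probe set, which is given apart and enters no count. The 3 livers came from mice of mixed strain aged 3 months, taken 1 week after an intraperitoneal injection of 400 microL of adeno-associated virus. The Cre virus (MUP-iCre-AAV8, n = 1 mouse) carried the recombinase that deletes floxed DNA, and the control virus (MUP-EGFP-AAV8, n = 2 mice) carried a fluorescent protein. The labels do not spell out MUP, the prefix of both vectors. The study's design text has both viruses given to mice with a floxed gene for HNF4alpha, a nuclear receptor of hepatocytes. The sample labels instead call the Cre liver HNF4alpha knockout and the control livers wild type, so virus and starting genotype cannot be told apart here.

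Signals are log2 values made with the RMA method on 1 array per mouse, and differences are Cre minus the mean of the controls, with limma's moderated standard error (SE). Rises and falls are stated for genes with an adjusted p under 0.05 in that fit of 12735 genes. The Cre group holds 1 mouse, which the test takes to vary like the controls. The medians of the arrays were 4.15 to 4.18, and the targeted gene Hnf4a, on its brightest probe set, was at 11.38 in the Cre liver and at 11.92 and 11.96 in the control livers (-0.55 ± 0.10 SE, limma adjusted p = 0.0401). In a fit over 31526 single probe sets, this set did not pass (adjusted p = 0.0644), and 1421983_s_at, at 6.52 in the Cre liver and 7.69 and 7.72 in the control livers, did (adjusted p = 0.0364). Where these probe sets lie relative to the deleted part was not analysed here, so they check the labels in part. Hepatocyte markers stayed bright on all arrays, with Alb at 14.62 in the Cre liver and 14.75 and 14.72 in the control livers. Of 7 hepatocyte markers fitted 2 fell, namely Apoc3 and Tat, where 5.21% of all fitted genes did. The summed linear signal of the 7 was 101132 in the Cre liver and 116465 and 120042 in the controls. That lower sum rested mostly on Apoc3, at 11.87 in the Cre liver and 14.13 and 14.21 in the controls. The summed signal of 7 macrophage markers was 1517 in the Cre liver and 806 and 1203 in the controls, and that of 4 bile duct cell markers was 149, against 57 and 71. Of those 4, 2 were fitted, Sox9 at 6.69 in the Cre liver and 3.88 and 4.82 in the controls, and Epcam at 4.58, against 4.28 and 4.32. The higher bile duct sum thus rested mostly on Sox9. Marco and Sox9 were the members of those lists that rose, and the part of these shifts in the results that follow was not tested. The Y-linked genes Eif2s3y, Kdm5d and Uty were between 5.14 and 8.07 and Xist between 3.17 and 3.59 on all 3 arrays.

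Ces2a and Ces2e fell and their genes stand in 1 block, so the 250 bases before their annotated starts are shown together with those of Ces1c, a member that rose. The sequences are RefSeq's, build GRCm38.p6, and run 5′ to 3′ on the strand of the gene. Those of Ces2a (chr8:104733753-104734002, plus strand) and Ces2e (chr8:104926010-104926259, plus strand) are followed by that of Ces1c (chr8:93131284-93131533, minus strand), and capitals mark CAAAG or its reverse complement CTTTG, the core of binding sites described for HNF4alpha.
Ces2a: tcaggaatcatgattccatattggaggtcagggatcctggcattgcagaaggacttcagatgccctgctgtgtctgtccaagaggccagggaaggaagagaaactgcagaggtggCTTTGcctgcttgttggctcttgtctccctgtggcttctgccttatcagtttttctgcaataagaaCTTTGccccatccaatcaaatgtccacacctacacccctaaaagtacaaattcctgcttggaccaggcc
Ces2e: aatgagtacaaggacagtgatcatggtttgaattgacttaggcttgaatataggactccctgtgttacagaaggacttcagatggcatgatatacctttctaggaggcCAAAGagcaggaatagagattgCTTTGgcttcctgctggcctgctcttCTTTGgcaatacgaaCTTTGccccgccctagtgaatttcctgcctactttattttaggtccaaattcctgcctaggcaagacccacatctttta
Ces1c: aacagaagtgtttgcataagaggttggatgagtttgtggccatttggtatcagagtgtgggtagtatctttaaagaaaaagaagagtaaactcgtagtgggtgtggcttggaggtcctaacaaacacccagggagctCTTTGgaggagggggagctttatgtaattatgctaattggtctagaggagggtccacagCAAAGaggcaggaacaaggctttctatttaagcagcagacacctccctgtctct
Such windows were found in the table used here for 6 of the 9 genes, Ces1c, Ces1e, Ces1g, Ces2a, Ces2e and Ces3b. The core CAAAG, searched on both strands, had 2 matches in Ces2a, 4 in Ces2e, 2 in Ces1c, 1 in Ces1e, 1 in Ces1g and 0 in Ces3b. Over all 32851 RefSeq promoter windows of that length, 48.6% held at least 1 match, 15.7% at least 2 and 0.773% at least 4. The longer motif CAAAGTCCA, which overlaps the core, was in 0 of the 6 windows and in 0.384% of all. A match of letters is a description and shows no binding.

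The windows of Ces2a and Ces2e also shared stretches of sequence. Their longest shared run had 17 bases, cagaaggacttcagatg, and began 205 bases before the start of Ces2a and 183 before that of Ces2e. The longest runs of the other pairs among the 6 windows had 7 to 11 bases. A second shared run, gaactttgcccc, held 1 of the CTTTG matches in each, and began 72 bases before the start of Ces2a and 82 before that of Ces2e. Over a global alignment 53.8% of positions were identical between Ces2a and Ces2e, against 42.8 to 53.5% for the other pairs. Identity over the whole window thus hardly set this pair apart, and how often such runs occur between other promoters was not tested.

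In the Cre liver the measured carboxylesterases did not move as 1 group. Of the 7 measured, all of which passed the filter on dim genes, 2 fell and 1 rose by limma's test and 4 did not pass. Among all 12735 fitted genes 5.21% fell and 6.71% rose. By size alone, 3 of the 7 lay at least 1 log2 unit below both controls and 1 lay as far above both, where the shares of all fitted genes were 3.72% and 3.67%. At 2 log2 units the counts were 2 below and 0 above, beside shares of 1.59% and 0.667%. Regardless of size, 4 of the 7 lay below both controls and 3 above both, where 33.6% and 49.7% of all fitted genes did so. The median difference of the 7 genes was -0.38, against 0.09 over all fitted genes. The RNA was of whole liver. Of the hepatocyte markers, Alb, Ttr, Apoa1, Fgb and Ahsg were at differences of -0.11 to 0.28, and Tat and Apoc3 at -1.02 and -2.30. The parts of hepatocyte number and of RNA per hepatocyte in the differences of the members were not tested.

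**Figure D1:**
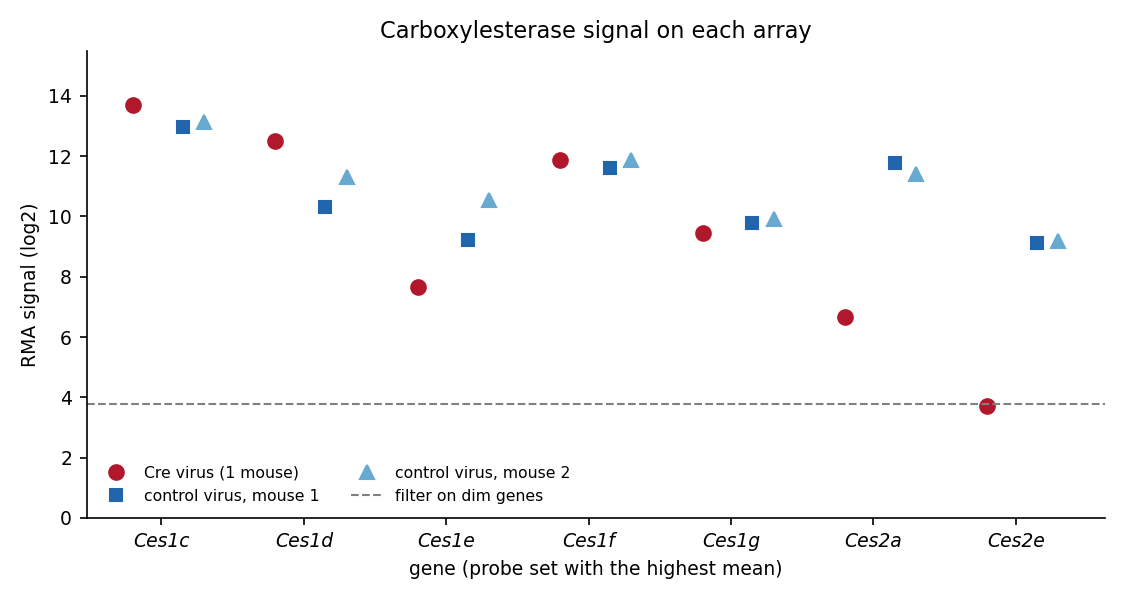
RMA signal (log2) of the 7 measured carboxylesterases on each array, for the Cre virus mouse (circle) and the control virus mice (square and triangle), with the filter value of 3.77 as a dashed line. The Cre points of Ces2a and Ces2e lie far below both control points, those of Ces1c and Ces1d above, and that of Ces2e just under the dashed line.

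The 2 Ces2 genes among the members, Ces2a and Ces2e, fell. Ces2e, on probe set 1427137_at, was at 3.72 in the Cre liver and at 9.11 and 9.20 in the control livers. The fitted difference was -5.44 ± 0.14 SE (limma adjusted p = 0.00107). The Cre signal lay below the filter value of 3.77, so that the size of the fall, and its place among other genes, are uncertain, although the Cre array stood far outside the controls. Ces2a, on probe set 1449375_at, was at 6.66 in the Cre liver and at 11.77 and 11.42 in the control livers. It was 30.6-fold lower (-4.93 ± 0.18 SE, limma adjusted p = 0.00142), a difference that 35 fitted genes reached, and its Cre signal was still above the median of the array. The control livers differed from each other by 0.09 in Ces2e and by 0.34 in Ces2a, small amounts beside either fall.

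The Ces3 genes, which encode liver carboxylesterases, could not be read singly. The probe set listed to both Ces3a and Ces3b, 1451600_s_at, was at 9.64 in the Cre liver and at 13.26 and 13.38 in the control livers. In a fit over 31526 probe sets it was 12.8-fold lower (-3.68 ± 0.10 SE, limma adjusted p = 0.00338), where 2.35% of all probe sets were called lower. Whether the transcripts of one gene or of both account for that signal was not tested.

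**Figure D2:**
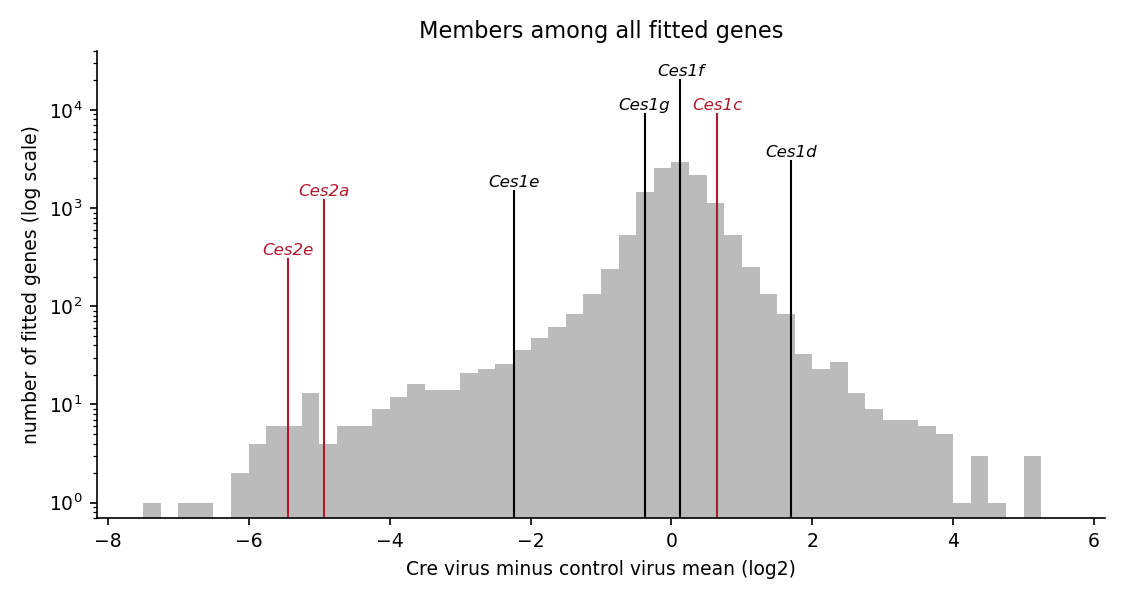
Histogram of Cre virus minus control virus differences (log2, 0.25 units per bar) over the 12735 fitted genes, with the number of genes on a log axis and the 7 carboxylesterases as lines, red where limma's test was passed. Ces2e and Ces2a stand at -5.44 and -4.93 in the low tail, and the Ces1 genes are spread from -2.23 to 1.70.

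Of the 5 measured Ces1 members 1 rose and 0 fell, beside 6.71% and 5.21% of all fitted genes. Ces1c, the esterase that mouse liver secretes into plasma, was at 13.71 in the Cre liver and at 12.98 and 13.14 in the control livers. It rose by 0.65 ± 0.11 SE (1.57-fold, limma adjusted p = 0.0358), and its Cre value lay above both controls, which differed by 0.16. That call was near the threshold: 10 other settings gave adjusted p values between 0.00443 and 0.0899, of which 7 passed. On the level of probe sets, where more rows were tested, the adjusted p was 0.0595.

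Ces1d encodes triacylglycerol hydrolase, which mobilises stored lipid for very low density lipoproteins. Its brightest probe set, 1435370_a_at, was at 12.52 in the Cre liver and at 10.32 and 11.32 in the control livers, so the Cre array was the highest by more than 1 log2 unit. The difference of 1.70 ± 0.43 SE did not pass (limma adjusted p = 0.0836), and it was 1.20 without control 1 and 2.19 without control 2. The other probe sets of Ces1d gave the same order of the arrays, though all of them read the same livers. Which of the similar Ces1 transcripts the suffixed sets, 1435370_a_at and 1435371_x_at, read was not tested. Probe set 1449081_at was at 12.04 in the Cre liver and 9.87 and 10.64 in the controls, and 1435371_x_at at 10.51 in the Cre liver and 9.16 and 9.79 in the controls.

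Ces1e encodes egasyn, which holds beta-glucuronidase in the endoplasmic reticulum. It was at 7.66 in the Cre liver and at 9.23 and 10.56 in the control livers, with the Cre array the lowest. The difference of -2.23 ± 0.57 SE did not pass either (limma adjusted p = 0.0846), and was -2.90 without control 1 and -1.57 without control 2. Gusb, the gene of beta-glucuronidase, was at 7.87 in the Cre liver and 7.47 and 7.47 in the controls (0.40 ± 0.13 SE), which did not pass (limma adjusted p = 0.135).

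The spread between the control mice set Ces1d and Ces1e apart from the other members. Control 2 was above control 1 by 1.00 in Ces1d and by 1.33 in Ces1e, whereas the median size of that difference over all fitted genes was 0.15. Of all fitted genes, 0.66% differed between the controls by as much as Ces1d and 0.298% by as much as Ces1e. Both genes were higher in the same control mouse, yet the Cre value was the highest of the 3 for Ces1d and the lowest for Ces1e. These are neighbouring genes with no protein-coding gene or transcribed pseudogene between them in the RefSeq table.

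**Figure D3:**
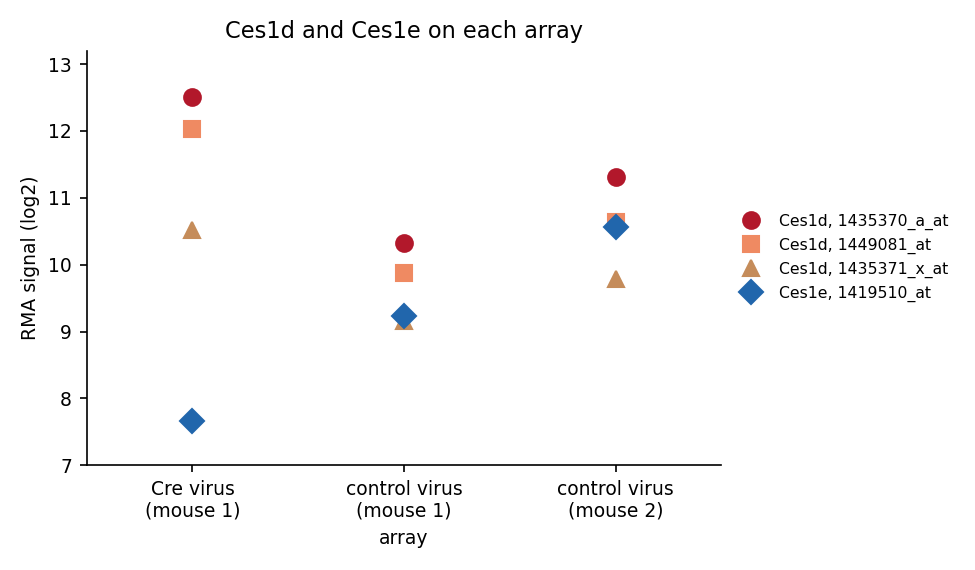
RMA signal (log2) of Ces1d on its 3 probe sets and of Ces1e on its 1 probe set, for the Cre virus mouse and each control virus mouse; each point is 1 array. All Ces1d points are highest in the Cre liver, the Ces1e point is lowest there, and both genes are higher in control mouse 2 than in control mouse 1.

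Ces1g and Ces1f had the smallest differences. Ces1g, a hepatic hydrolase whose loss in mice raises liver lipid, was at 9.47 in the Cre liver and at 9.78 and 9.92 in the control livers (-0.38 ± 0.13 SE, limma adjusted p = 0.133). The Cre value was below both controls without passing. Ces1f, called TGH-2 among its older names in the RefSeq table, was at 11.87 in the Cre liver and 11.62 and 11.87 in the controls (0.13 ± 0.14 SE, limma adjusted p = 0.58). The Cre array exceeded control 2 by 0.004. Its probe set, 1424266_s_at, carries the suffix for sets that can read more than 1 transcript, and which of the similar Ces1 transcripts it reads was not tested.

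No other gene of the family passed the test. Of 11 others listed, 6 had a single-gene probe set and 5 passed the filter. Of these 0 fell and 0 rose by limma's test, beside 5.21% and 6.71% of all fitted genes. An unadjusted limma p under 0.05 was found for 2 of them. Ces2b was at 3.38 in the Cre liver and at 4.82 and 4.20 in the control livers (-1.13 ± 0.31 SE, limma adjusted p = 0.0982), and was dim on all arrays. Ces2g was at 6.84 in the Cre liver and 7.53 and 7.45 in the controls (-0.65 ± 0.14 SE, limma adjusted p = 0.0635). Ces5a was at -0.46, Ces1h at 0.09 and Ces4a at 0.14 as differences, and none of these passed. Ces2f lay below the filter, at 2.43 in the Cre liver and 2.59 and 2.77 in the controls.

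**Figure D4:**
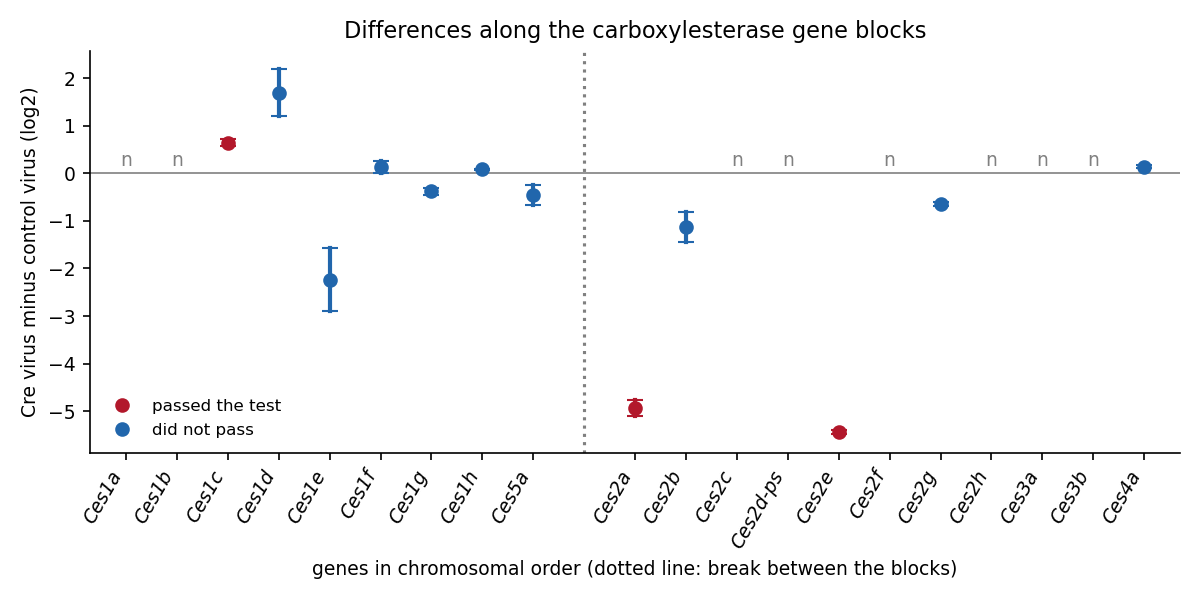
Cre virus minus control virus difference (log2) for carboxylesterase genes in their order on the chromosome; dots are means, bars span the differences from each control, red marks genes that passed limma's test and n marks genes with no fitted single-gene value. Ces2a and Ces2e lie near -5, and the other genes of their block with a fitted single-gene value between -1.13 and 0.14. Ces3a and Ces3b stand in that block too, and their joint probe set, at -3.68, is not drawn. Ces1d and Ces1e, side by side, lie on opposite sides of 0.

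In a list of neutral lipid hydrolases, their cofactors and related enzymes such as the lysophospholipase Pnpla7, genes passed the test in both directions. Of 18 fitted genes of that list, 2 fell and 3 rose, beside 5.21% and 6.71% of all fitted genes. The median difference of the list was 0.06. Pnpla7, a lysophospholipase, was at 6.89 in the Cre liver and 10.50 and 10.35 in the controls (-3.53 ± 0.13 SE, limma adjusted p = 0.00144). Aadac, an esterase of the endoplasmic reticulum that like the carboxylesterases acts on drugs and lipids, was at 10.36 in the Cre liver and 11.91 and 11.65 in the controls (-1.42 ± 0.15 SE, limma adjusted p = 0.0141). Both lay below each control. Lpl, lipoprotein lipase, rose by 1.79 ± 0.15 SE, and Abhd6 and Mgll, which cleave monoacylglycerol, rose by 1.49 ± 0.12 SE and 1.37 ± 0.19 SE. Pnpla2, the adipose triglyceride lipase, was at a difference of -0.05, Lipa, the lysosomal acid lipase, at 0.12 and Nceh1, a cholesteryl ester hydrolase, at 1.32, and these did not pass.

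Of 12 fitted hydrolases of drugs and other small molecules, 5 fell and 1 rose, beside 5.21% and 6.71% of all fitted genes. Their median difference was -0.43. Faah, which hydrolyses fatty acid amides, was at 5.35 in the Cre liver and 8.26 and 8.37 in the controls (-2.97 ± 0.14 SE, limma adjusted p = 0.00254). The falls of Ephx2, the soluble epoxide hydrolase (-0.85), Cmbl, which activates ester prodrugs (-0.82), Afmid, a formamidase of tryptophan breakdown (-0.71), and Pon1, a lactonase of high density lipoprotein (-0.45), were each under 1 log2 unit. Ephx1, the microsomal epoxide hydrolase, rose by 0.56 ± 0.09 SE. Faah, Afmid and the epoxide hydrolases do not act mainly on esters. Pon2 (0.73) and Bche, which encodes butyrylcholinesterase (-0.20), did not pass.

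A further list held retrieval receptors of the endoplasmic reticulum, proteins that reside in it and Gusb. Of its 7 fitted genes, 1 fell and 0 rose, beside 5.21% and 6.71% of all fitted genes, with a median difference of 0.14. Kdelr2, a receptor that returns proteins with a retrieval signal, was at 10.03 in the Cre liver and 10.77 and 10.82 in the controls (-0.76 ± 0.11 SE, limma adjusted p = 0.0254). Kdelr1 was at a difference of 0.14 and Hspa5, the lumenal chaperone BiP, at 0.03, and neither passed.

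Transcription factors known to act on carboxylesterase genes, a list that includes the targeted gene Hnf4a itself, were split. Of 6 fitted, 2 fell and 1 rose, beside 5.21% and 6.71% of all fitted genes, with a median difference of -0.40. Besides Hnf4a, Nr1i3, which encodes the xenobiotic receptor CAR, fell, with 5.01 in the Cre liver against 8.20 and 8.17 in the controls (-3.18 ± 0.14 SE, limma adjusted p = 0.00206). Nfe2l2, which encodes NRF2, was at 10.14 in the Cre liver and 8.86 and 8.91 in the controls, and rose by 1.26 ± 0.12 SE (limma adjusted p = 0.0117). Nr1i2, which encodes the related receptor PXR, was at 7.29 in the Cre liver and 7.24 and 7.25 in the controls, a difference that did not pass. Ppara, which encodes the fatty acid receptor PPARalpha, was at 8.03 in the Cre liver and 9.26 and 9.96 in the controls (-1.58 ± 0.32 SE), more than 1 log2 unit below both, and did not pass (limma adjusted p = 0.054). Nr1h4, which encodes the bile acid receptor FXR, was at a difference of -0.25 and did not pass.

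**Figure D5:**
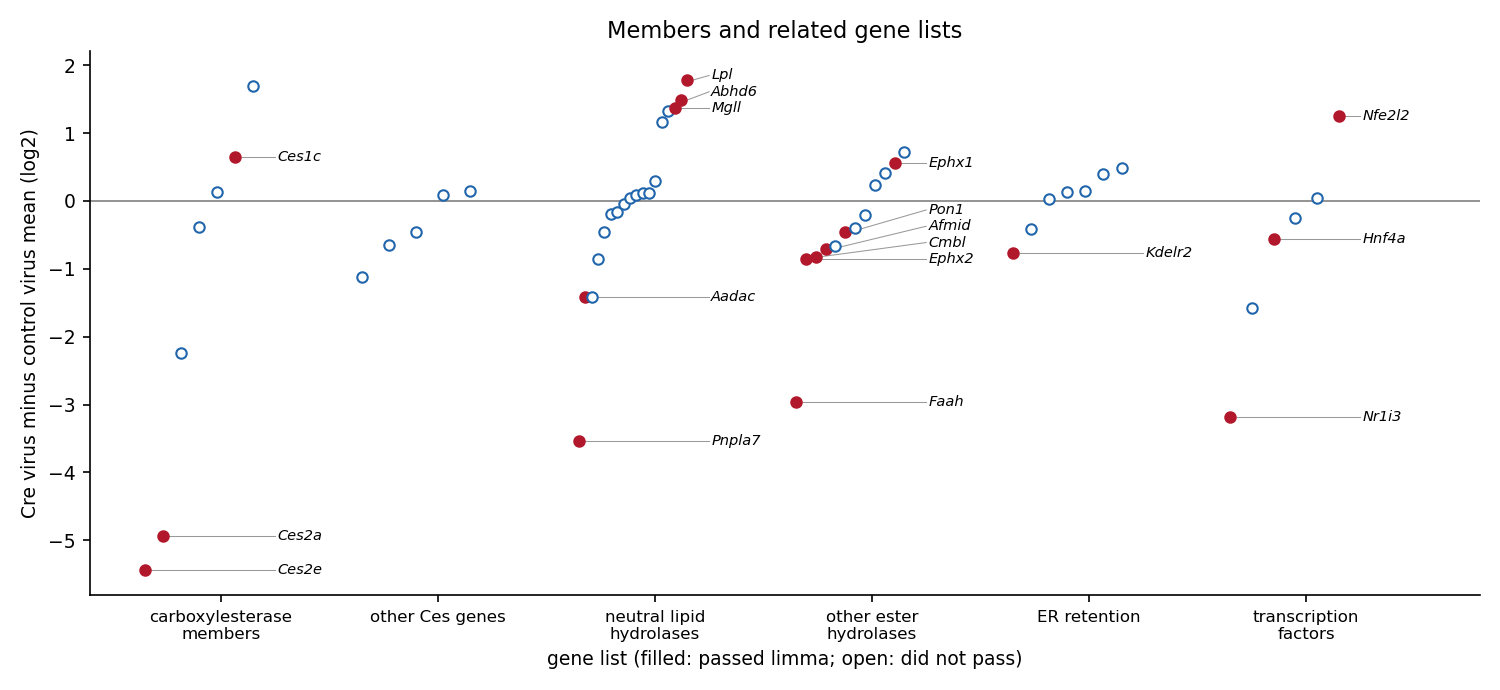
Cre virus minus control virus differences (log2) of the 7 measured carboxylesterases and of the fitted genes of 5 related lists; each point is 1 gene, filled where limma's test was passed and open where it was not. Ces2e and Ces2a are the lowest points, followed by Pnpla7 at -3.53 and Nr1i3 at -3.18.

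The genes most like Ces2e over the 3 arrays were F13b, Slc47a1, Aadat and Cyp2f2. Likeness was the Euclidean distance between profiles centred on their own means, which was 0.15 log2 units for F13b and 0.18 for Cyp2f2. Their differences ran from -5.29 to -5.22. Each of these profiles is in effect a single contrast of 1 array with 2, so many genes could score alike, and that of Ces2e rests on the dim Cre signal.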

How the data were processed

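Gene expression was measured in 3 mouse livers, 1 given Cre virus and 2 given control virus, on 1 single-colour array each. The deposited values are log2 signals per probe set from RMA; the submitters' processing notes name Partek 6.5 as the authors' software. The method subtracts background, forces the arrays to 1 distribution and combines the probes of a set, which hides a shift shared by all genes and compresses differences of dim ones. The log base is not stated, and the range of values fits base 2.

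Of 45101 probe sets, 34945 listed 1 gene, 932 several and 9160 none in the platform annotation, and 64 were array controls. For 34741 of the sets listing 1 gene, the symbol was taken by Entrez ID from the RefSeq table of GRCm38.p6, whether or not it differed. The brightest single-gene probe set stood for each gene, and genes whose mean reached the 30th percentile (3.77) entered a linear model in limma 3.58.1 (R 4.3.3), moderated with a trend on intensity, with Benjamini-Hochberg adjustment over all fitted genes, two-sided. The controls gave 1 residual and moderation 3.18 prior degrees of freedom, and the number of arrays limits the precision. The titles number the controls as biological replicates. The fit was also run on simulated data in which the Cre array varied like the controls, so it did not test that assumption. Signals of different probe sets were not ranked against each other, since a probe set's signal depends on its probes.

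The genes, the lists and the tests were chosen with earlier results of these data known. Named were the 9 genes, Hnf4a, up to 6 members of each list that passed with up to 4 that did not, and 4 genes most like the member with the largest difference. The probe set of Ces3a and Ces3b and the macrophage and bile duct markers were described after their values were seen. Alternatives changed the trend, the moderation, the filter, the normalization, the probe set per gene, the thresholds and the controls used. Plots used matplotlib 3.10.9 (Python 3.11.15).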

Additional observations from a re-analysis of the deposited data

How the results depend on the processing

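Ces2a and Ces2e fell in each of the 10 other settings with a test, with differences of -5.04 to -4.92 and -5.44 to -5.42, and every member kept its direction in all settings that gave it a value. The number of members that rose was 0 without the intensity trend, without the filter, without probe sets of the suffixes _s_at, _x_at or _a_at and at a threshold of 0.01, and 2 after median centring, after quantile normalization and at a threshold of 0.1. Ces1c and Ces1d were the genes concerned. Ces1d passed after median centring (adjusted p = 0.0419) and quantile normalization (adjusted p = 0.0206), as did Ces1e (adjusted p = 0.0432 and 0.0178), with limma throughout, so that 3 members fell in those settings and at a threshold of 0.1. At a size of 2 log2 units, 0 members lay above both controls. The median of the members was -1.31 without the suffixed probe sets, which leaves out Ces1f, and between -0.45 and -0.31 with either control left out, where 3 members lay at least 1 log2 unit lower and 1 higher in both cases. With 1 control left out no degree of freedom remains, so those are values without a test.

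Calls in the related lists also depended on the setting, as did the share of all fitted genes called: 5.21% lower and 6.71% higher as reported, 7.85% and 9.28% after quantile normalization, 4.24% and 5.16% without the trend, 2.8% and 2.45% without the filter, and 3.89% and 4.06% without suffixed probe sets. After quantile normalization 2 other carboxylesterases fell, 5 genes of the neutral lipid list rose and 2 other hydrolases rose. In that setting 2 genes of the endoplasmic reticulum list fell as well. As means of probe sets 1 other carboxylesterase fell, where 5.5% of all fitted genes did. Without the trend 2 of the other hydrolases fell and 0 rose, 0 of the endoplasmic reticulum list fell and 1 transcription factor fell. Without the filter 3 of the other hydrolases fell and 0 rose, and 1 transcription factor fell. Without suffixed probe sets 1 gene of the neutral lipid list fell, 3 of the other hydrolases fell and 0 rose, and 0 transcription factors fell. Of 4 Hnf4a probe sets 1, 1421983_s_at, was called lower, against 0 without the trend or the filter, 2 with robust moderation and 3 after quantile normalization. The causes were not tested. No paired analysis was possible because the Cre group holds 1 mouse, so the groups share fewer than 2 replicate numbers. No group was large enough for a check of outlying samples.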

Other observations

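Genes beside the carboxylesterase blocks were looked up after the values of the blocks had been seen. The RefSeq table places Ces1a to Ces1h and Ces5a in 1 block, and Ces2a to Ces2h, Ces3a, Ces3b and Ces4a in another on the same chromosome. The 5 nearest fitted protein-coding genes on each side were taken. Of the 10 beside the Ces2 block 0 fell and 0 rose by limma's test (5 had an unadjusted p under 0.05), with a median difference of 0.28 and values from -0.97 (Cdh16, which encodes a kidney cadherin) to 1.18 (Nol3, an inhibitor of cell death). Ciao2b, next before Ces2a among fitted genes, was at 8.66 in the Cre liver and 8.03 and 8.03 in the controls, and Cbfb, next after Ces4a, at 8.68 in the Cre liver and 7.74 and 8.10 in the controls. Of the 10 beside the Ces1 block 0 fell and 0 rose as well (1 had an unadjusted p under 0.05), with values from -0.33 (Lpcat2) to 0.77 (Aktip) and a median of 0.04. Among all 12735 fitted genes 5.21% fell and 6.71% rose, and 3977 had an unadjusted limma p under 0.05. A count of 0 in 10 genes is near those shares.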
